A study of Homo sapiens with 24 samples.

Results

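SU-DHL-4 cells kept in tazemetostat (TAZ) and UTD cells were compared with the same line kept in DMSO and UTD cells, 3 libraries against 3 out of the 24 libraries of the series, and every gene of the count table was taken as a member. SU-DHL-4 is a diffuse large B cell lymphoma line of germinal centre type. It was given DMSO or 500 nM tazemetostat for 72 h, then cultured for 48 h with UTD cells while the drug or solvent was kept on, and viable GFP-positive cells were sorted for RNA. Both groups were thus sorted on GFP and had met UTD cells, a term the labels do not spell out, and by the labels they differed in the drug alone. Nothing in the labels says that the 3 libraries of a group came from separate cultures, so the p-values measure the spread between these libraries, which may be technical. The other libraries of the series, used below where named, held SU-DHL-4 with CART19 cells and the line OCI-Ly18 with UTD or CART19 cells. All had DMSO or 500 nM tazemetostat for the same times.

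Tazemetostat inhibits EZH2, the catalytic subunit of Polycomb repressive complex 2 (PRC2). PRC2 places methyl groups on lysine 27 of histone H3, and promoters carrying the trimethyl mark are held silent. Germinal centre B cells use EZH2 at high level to hold back cell cycle inhibitors and plasma cell and memory genes, and germinal centre lymphomas often carry mutations that raise its activity.

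The 6 libraries held between 15163772 and 18093182 gene counts, against 14783781 to 20148891 over the series. Levels are counts-per-million values (CPM), which scale each count by its library's total, in the order of the library numbers. A gene was called raised or lowered where the edgeR quasi-likelihood test of TAZ against DMSO, fitted on the 12 SU-DHL-4 libraries, gave a Benjamini-Hochberg adjusted p under 0.05 over the 14861 genes tested. Changes are fitted log2 values of TAZ minus DMSO with their standard error (SE). Of the genes tested, 2561 (17.2%) were raised and 2721 (18.3%) were lowered, and upper quartile scaling gave 3221 raised and 1782 lowered. All 3 TAZ libraries lay above all 3 DMSO libraries in CPM for 28.5% of genes tested and below them for 16.5%.

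Other cells in the sort were checked through markers. The 23 T cell markers summed to 247 to 254 CPM in the DMSO libraries and 177 to 193 CPM in the TAZ libraries, of which LCK and TRAC, with 9795 and 1937 counts over the 3 DMSO libraries, were the bulk. CD2, CD7, CD8A, CD8B, GZMA, GZMB, GZMK and TRBC1 had 0 counts in all 6 libraries, CD3D had 0 in DMSO and 2 in TAZ, and CD3E had 193 and 155. Natural killer markers summed to 0.848 to 1.32 CPM in DMSO and 1.36 to 1.45 CPM in TAZ, and myeloid markers to 0 to 0.995 and 0.665 to 1.81 CPM. In bulk RNA, fewer cells of a type and less RNA per cell cannot be told apart.

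The targeted gene and its complex come first. EZH2 stood at 192, 198 and 195 CPM in DMSO and 168, 166 and 173 CPM in TAZ. The TAZ libraries were all lower, by −0.28 on the log2 scale (SE 0.049, adjusted p = 9.2e-06); the drug blocks the enzyme rather than its transcript, so this level does not check the labels. EZH1, the related enzyme that forms an alternative PRC2, stood at 36.3, 40 and 38.1 CPM in DMSO and 54.1, 54.9 and 55.6 CPM in TAZ (log2 change 0.45, SE 0.081, adjusted p = 1.6e-05), again without overlap. Of 13 PRC2 genes tested, 3 were raised and 6 lowered (46.2%), with a median of −0.25, against 0.014 over all genes tested. Lowered shares rose with level over all genes, to 32% between 30 and 100 CPM and 51.4% above 100 CPM, as given below. The PRC2 count is thus not particular to the complex. The lowered ones included the core subunits SUZ12 (−0.33) and RBBP7 (−0.36) and the accessory subunit AEBP2 (−0.30), and EPOP, another accessory subunit, was raised by 0.63.

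Polycomb repressive complex 1 (PRC1) binds the mark through its CBX subunits. Of its 23 genes, 10 were raised and 6 lowered, with a median of 0.15, and upper quartile scaling gave 11 raised and 2 lowered. CBX7, a reader of the mark, went from 0.909, 0.659 and 1.38 CPM to 3.14, 2.83 and 5.08 CPM (log2 change 1.81, SE 0.36, adjusted p = 6.5e-05). RYBP, which defines the variant form of the complex, stood at 25.6, 26.4 and 30.1 CPM in DMSO and 54, 53.1 and 53.4 CPM in TAZ (log2 change 0.89, SE 0.087, adjusted p = 2.5e-11). Both genes had all TAZ libraries above all DMSO libraries. PHC1, a subunit of the canonical complex, was raised by 0.68 and BCORL1, a corepressor of a variant complex, by 1.08, while PCGF6, a subunit of another variant, was lowered by −0.49.

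Other chromatin regulators were counted next, beginning with enzymes that remove or oppose the mark. Of 8 H3K27 demethylases, acetyltransferases and MLL methyltransferases, 5 were raised and 0 lowered, with a median of 0.17. KMT2D, a histone H3 lysine 4 methyltransferase often lost in this lymphoma, stood at 218, 239 and 215 CPM in DMSO and 308, 310 and 311 CPM in TAZ (log2 change 0.39, SE 0.05, adjusted p = 1.5e-08). The demethylase KDM6B rose by 0.39, and the acetyltransferase EP300 by 0.34. Among 12 remodelling and deacetylase genes, 3 were raised and 4 lowered. HDAC9, a histone deacetylase, went from 11.8, 9.83 and 11.1 CPM to 26, 29.2 and 23 CPM (log2 change 1.18, SE 0.14, adjusted p = 1.2e-09). Among DNA methylation genes, DNMT3A, which sets new methylation, rose by 1.13, while DNMT1 and UHRF1, which copy it at replication, fell by 0.37 and 0.39.

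The 2 directions differed in size. The raised genes had a median change of 0.79 on the log2 scale, with quartiles of 0.395 and 1.42, and a median DMSO level of 7.7 CPM. The lowered genes had a median decrease of 0.307, with quartiles of 0.231 and 0.4, and a median DMSO level of 86.2 CPM. A change of at least 1 on the log2 scale was reached by 1006 raised genes (6.77% of genes tested) and 27 lowered genes (0.182%), and 330 raised genes passed 2 and 108 passed 3. A low gene needs a larger change to be called, so level and size of called changes are linked by the test itself.

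**Figure D1:**
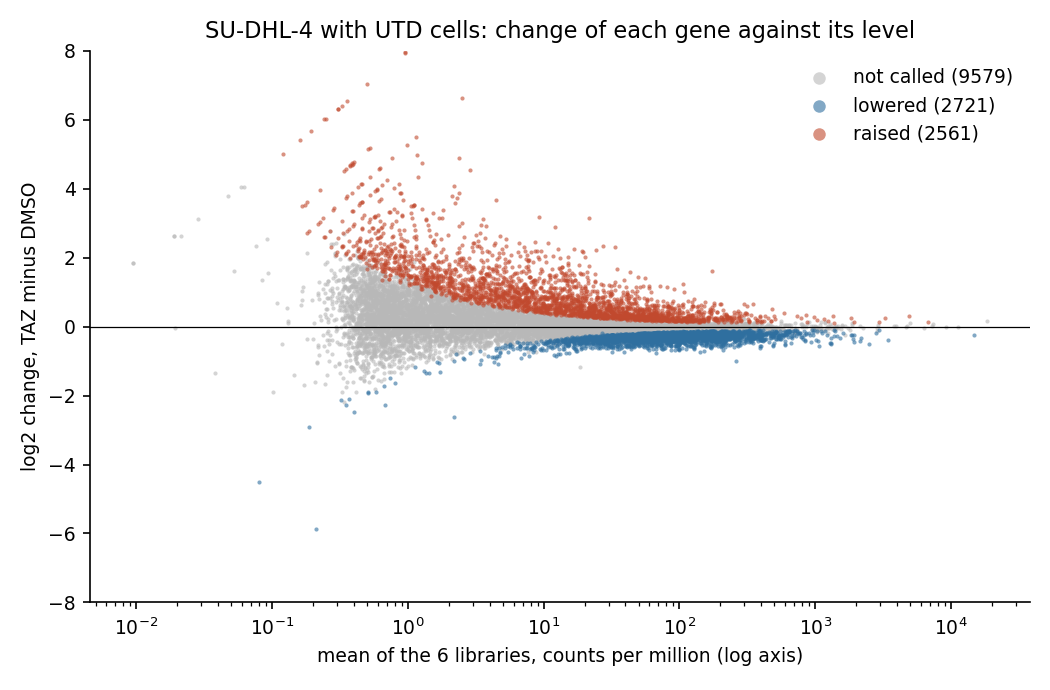
Fitted log2 change of TAZ against DMSO with UTD cells (vertical axis) for each gene tested, by its mean CPM over the 6 libraries compared (horizontal log axis). Level and change come from the same libraries here and are not independent. Raised genes spread upward, most widely at low levels, and 39.3% of all raised genes pass 1 on the log2 scale; lowered genes form a band close to 0 at high levels; 13 genes lie outside the axes.

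The dependence on level was read from libraries outside the contrast, by the CPM of each gene in SU-DHL-4 cells with DMSO and CART19 cells. Between 3 and 10 CPM, 28.7% of 1853 genes were raised and 3.24% lowered. Between 10 and 30 CPM the shares were 20.7% and 11.2% of 2507 genes, and between 30 and 100 CPM they were 11.9% and 32% of 3701 genes. Above 100 CPM, 9.38% of 2281 genes were raised and 51.4% lowered, so the balance turned from increases to decreases with level. Under 0.3 CPM, 34.6% of 465 genes were raised, but genes this low passed the count filter only through another group. With levels taken per kilobase of gene length, a choice made after the data were seen, 9.38% were raised and 49.7% lowered in the highest class.

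**Figure D2:**
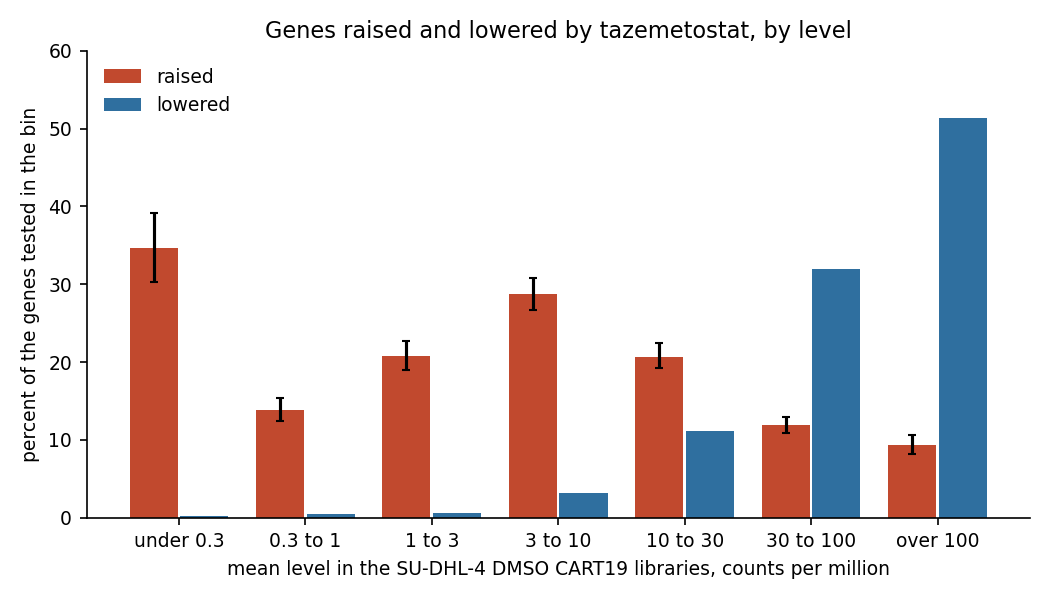
Percent of genes tested that were raised and that were lowered (vertical axis) in classes of mean CPM in the SU-DHL-4 DMSO CART19 libraries, which are outside the contrast (horizontal axis); bars on the raised shares are 95% binomial intervals over genes, which share libraries and are not independent. The lowered share climbs to 51.4% above 100 CPM, where 9.38% were raised.

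More genes were detected after the drug. Genes at 1 CPM or more numbered 12156, 12082 and 12092 in DMSO and 13001, 12970 and 12946 in TAZ, a mean difference of 862. The groups did not overlap, and the exact 2-sided permutation test gave p = 0.10, the smallest that 3 libraries against 3 allow. The mitochondrial share of counts was 6.98%, 7.8% and 7.42% in DMSO and 8.39%, 8.12% and 8.26% in TAZ. The TAZ libraries were higher in this share too, and its part in the results was not tested.

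Genes close to silent in DMSO gave the steepest increases. Of 94 genes tested with at most 3 counts over the 3 DMSO libraries, 64 were raised, 13 of which had 0 counts; each had passed the filter through another group, so this count describes and supports nothing. None of the 64 reached 5 CPM in TAZ, and 18 reached 1 CPM. PADI2, an enzyme that turns peptidyl arginine into citrulline, had 2 counts in DMSO and 248 in TAZ, a ratio of 124 with a 95% counting interval of 34 to 1029. The guidance receptor EPHB2 had 0 and 94 counts, at least 31.3-fold higher against a floor of 3 counts over the group. TNFRSF18, the costimulatory receptor GITR, had a ratio of 56.5 (15.3 to 472), and CD44, a hyaluronan receptor of memory and activated lymphocytes, a ratio of 36.5 (9.75 to 307). Intervals and floors cover counting error only.

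Among genes with 5 CPM or more in TAZ, the increases held receptors, cytoskeletal genes and regulators. ADGRG5, an adhesion G protein coupled receptor, went from 2.85, 3.1 and 2.32 CPM to 19.8, 24.3 and 19.9 CPM (log2 change 2.88, SE 0.17, adjusted p = 1.9e-18). NLRP3, the sensor of the inflammasome, went from 1.21, 1.58 and 0.995 CPM to 8.15, 7.76 and 8.89 CPM (log2 change 2.64, SE 0.25, adjusted p = 1.3e-11). CHST15, a chondroitin sulfotransferase, and KLHL3, a substrate adaptor of a ubiquitin ligase, rose by 2.58 and 2.65. No library of one group reached the range of the other for any of these. Decreases of coding genes with a mean of 5 CPM or more in DMSO were small beside them. HTR3A, a subunit of the serotonin-gated channel, went from 349, 351 and 329 CPM to 176, 178 and 185 CPM (log2 change −1.01, SE 0.048, adjusted p = 1.4e-21), and only ZNF25, a zinc finger gene, fell further among those with groups that do not overlap (−1.04). Smaller decreases included TRIM47 (−0.87), the mediator subunit MED30 (−0.86), the proapoptotic BAD (−0.79) and the cell cycle phosphatase CDKN3 (−0.78).

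Promoters of a pair of the most raised genes are shown because Polycomb marks in mammals gather at CpG-rich starts, and these 2 differ in that respect. FCER2, which encodes the low affinity IgE receptor CD23, lies on the minus strand at chr19:7688758-7702146 (ENSG00000104921), and BACH2, which encodes a transcriptional repressor that holds back plasma cell differentiation, on the minus strand at chr6:89926529-90296908 (ENSG00000112182), both in hg38. The windows run from 250 bases before to 50 bases after the RefSeq gene start on GRCh38.p14, at chr19:7702082-7702381 and chr6:90296794-90297093, read 5′ to 3′ on the minus strand, with each CG in capitals.
FCER2: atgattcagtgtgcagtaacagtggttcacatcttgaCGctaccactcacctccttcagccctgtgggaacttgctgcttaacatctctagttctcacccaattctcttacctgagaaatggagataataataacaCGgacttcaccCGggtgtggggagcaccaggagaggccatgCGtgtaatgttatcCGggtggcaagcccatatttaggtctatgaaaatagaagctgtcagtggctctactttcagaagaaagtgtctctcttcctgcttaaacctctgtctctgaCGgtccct
BACH2: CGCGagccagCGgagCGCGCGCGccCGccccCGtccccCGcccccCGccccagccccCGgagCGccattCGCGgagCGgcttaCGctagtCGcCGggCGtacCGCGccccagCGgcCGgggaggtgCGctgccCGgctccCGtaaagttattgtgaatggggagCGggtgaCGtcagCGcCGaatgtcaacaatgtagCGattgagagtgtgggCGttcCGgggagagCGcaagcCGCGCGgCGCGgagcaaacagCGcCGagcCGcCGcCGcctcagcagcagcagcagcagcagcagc
The FCER2 window holds 6 CG pairs and the BACH2 window 45. Over the 9468 of 11570 tested protein coding genes that had a window, the median was 26 CG pairs, and 71.5% of windows held 20 or more. Raised genes had a median of 26, with 65.7% of 1718 windows at 20 or more, and those raised by at least 1 on the log2 scale a median of 25 and a share of 62.5%. Lowered genes had a median of 28 and a share of 81.8% of 2233 windows, higher than among raised genes; these shares describe the windows and were not tested.

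B cell genes are described by role, beginning with surface molecules and antigen receptor signalling. Of 13 B cell surface genes tested, 9 were raised and 0 lowered, with a median of 0.21, beside 17.2% and 18.3% of all genes tested. Members that passed the count filter through the TAZ libraries, such as CR2 (4 counts over DMSO, 59 over TAZ), had to be higher there. The changes were graded: the adhesion glycoprotein CD24 went from 4, 4.42 and 4.26 CPM to 19.7, 20.3 and 24.1 CPM, while the inhibitory lectin CD72 moved from 42.9, 39.6 and 37.3 CPM to 50.8, 51.3 and 55.6 CPM (log2 change 0.32, SE 0.077, adjusted p = 0.00079). CD22, an inhibitory coreceptor, rose by 0.21. Of 13 B cell transcription factors, 2 were raised, among them FOXP1 (0.73), and 3 lowered.

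Of 43 genes of B cell receptor signalling, 12 were raised, 7 lowered and 24 passed neither way, with a median of 0.025, and upper quartile scaling gave 17 raised and 4 lowered. PRKCB, the protein kinase C isoform that links the receptor to NF-kB, stood at 6.54, 11.7 and 7.9 CPM in DMSO and 45.5, 48.4 and 44.4 CPM in TAZ (log2 change 2.34, SE 0.12, adjusted p = 5e-18), without overlap. MALT1, the protease of the complex downstream of it, went from 76.2, 77.4 and 86.2 CPM to 130, 130 and 128 CPM (log2 change 0.62, SE 0.07, adjusted p = 4.4e-09). The exchange factor VAV3 rose by 0.69, and SPRED2 and DUSP6, which restrain the MAP kinase arm, rose by 0.77 and 0.75. LYN, a kinase that starts both activating and inhibitory signals, fell by 0.30.

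Of 28 germinal centre genes, 15 were raised and 3 lowered, with a median of 0.18. TCL1A, a coactivator of AKT, went from 17.4, 20 and 20.3 CPM to 47.9, 44.8 and 46.7 CPM (log2 change 1.20, SE 0.086, adjusted p = 2.9e-15). Every TAZ library exceeded every DMSO library. ASB13, a ubiquitin ligase adaptor, rose by 1.17, KLHL14 by 0.72 and the DNA glycosylase NEIL1 by 0.49.

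Genes of exit from the germinal centre are given by route. Of 19 naive or memory genes, 11 were raised and 2 lowered, with a median of 0.58. Members that passed the count filter through the TAZ libraries had to be higher there, here and among the plasma cell genes below. BACH2 stood at 3.51, 4.95 and 3.98 CPM in DMSO and 36.8, 41.1 and 38.8 CPM in TAZ (log2 change 3.16, SE 0.13, adjusted p = 2.7e-23). FCER2 stood at 0.606, 0.462 and 0.719 CPM in DMSO and 9.31, 7.76 and 7.68 CPM in TAZ (log2 change 3.68, SE 0.25, adjusted p = 4.4e-16). Neither gene had overlapping groups. Of 10 plasma cell genes tested out of 12 listed, 5 were raised and 0 lowered, with a median of 0.15. The plasma cell regulator PRDM1 and the surface marker SDC1 were too low to be tested. SDC1 had 2 counts over the DMSO libraries and 12 over the TAZ libraries. SLAMF7, a surface receptor of plasma cells, went from 0.242, 0 and 0.0553 CPM to 1.41, 3 and 2.36 CPM (log2 change 4.33, SE 0.54, adjusted p = 1.2e-08). TNFRSF17, the plasma cell survival receptor BCMA, rose by 0.53, while the remaining 3 raised members, XBP1 (0.56), JCHAIN (0.16) and ELL2 (1.38), each lost their call when certain single libraries were left out. XBP1 also lost it with the replicate block, with DESeq2, with limma voom and without the filter, and ELL2 with DESeq2 and limma voom.

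**Figure D3:**
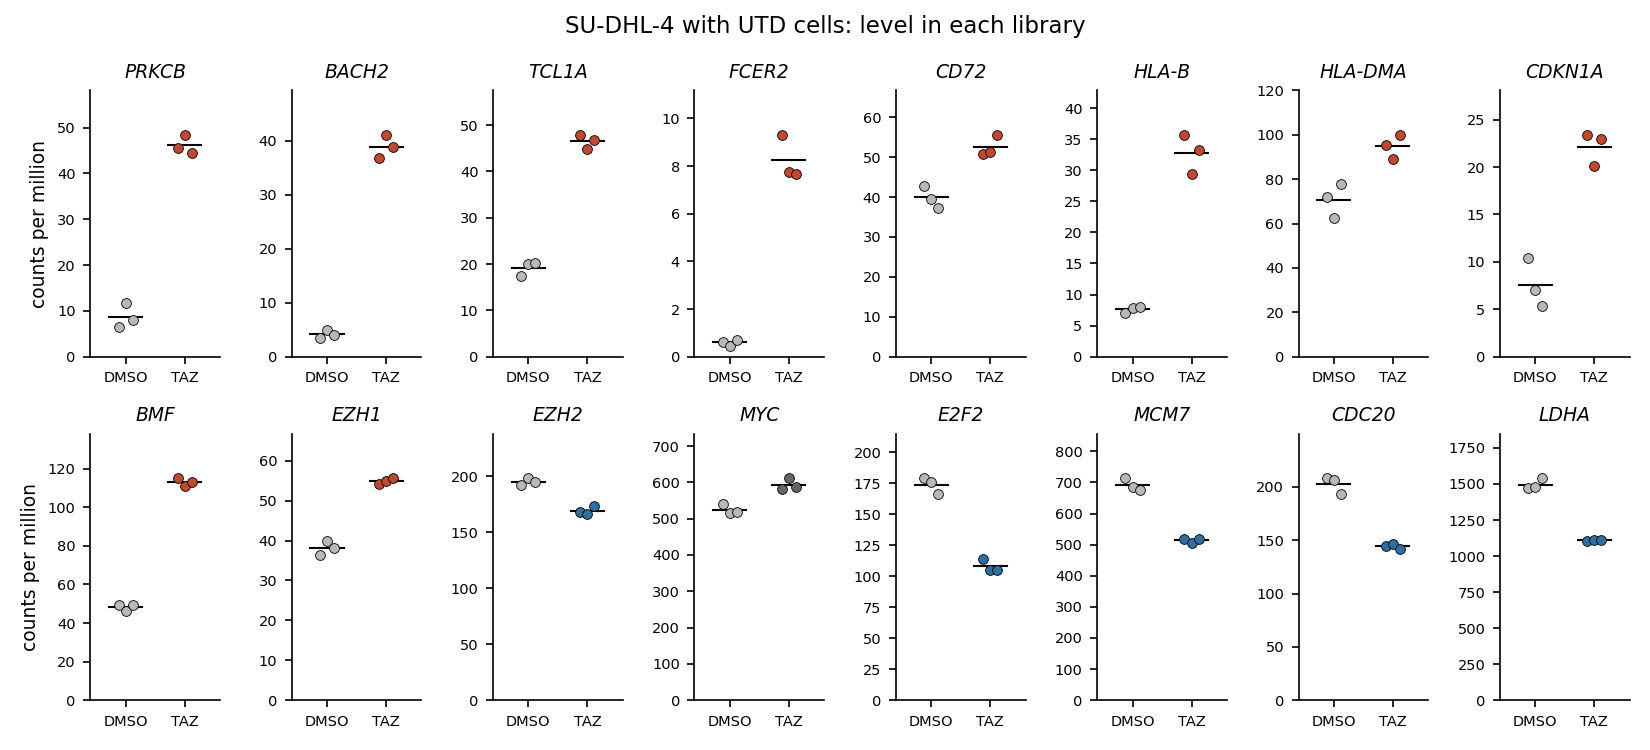
CPM of 16 genes in each of the 3 DMSO and 3 TAZ libraries with UTD cells, on linear axes that start at 0, with a line at each group's mean; TAZ points are red where the gene was raised, blue where it was lowered and dark grey where it was not called. BACH2 lies at 3.51 to 4.95 CPM in DMSO and 36.8 to 41.1 CPM in TAZ, EZH2 at 192 to 198 and 166 to 173 CPM, and the groups are apart in every panel.

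Receptors for antibody and for cell contact changed at low levels. Of 11 Fc and FCRL receptor genes, 8 were raised and 1 lowered, with a median of 1.52. Low members of this list and of the adhesion list that passed the count filter through the TAZ libraries had to be higher there. Their counts describe and support nothing. FCRL4, a receptor of tissue memory B cells, went from 0.424, 0.198 and 0.332 CPM to 3.91, 5.21 and 3.2 CPM (log2 change 3.58, SE 0.43, adjusted p = 4.7e-09). FCRL5, another antibody binding receptor, rose by 3.16, FCRL3 by 1.93 and FCGRT, the neonatal Fc receptor that recycles antibody, by 1.52. Of 20 adhesion and synapse genes, 10 were raised and 0 lowered, with a median of 0.23. ITGA6, a laminin-binding integrin chain, went from 7.33, 6.92 and 7.3 CPM to 21.1, 21.1 and 19.4 CPM (log2 change 1.44, SE 0.14, adjusted p = 4.4e-11), and the junction molecules F11R and PECAM1 rose by 2.46 and 1.74.

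Of 11 inhibitory checkpoint genes tested out of 21 listed, 6 were raised and 0 lowered, with a median of 1.53. Members that passed the count filter through the TAZ libraries had to be higher there, so this count describes and supports nothing. HAVCR2, which encodes the receptor TIM-3, went from 0.909, 1.52 and 0.829 CPM to 2.18, 3.51 and 4.11 CPM (log2 change 1.53, SE 0.36, adjusted p = 0.00061). LAIR1, an inhibitory collagen receptor, reached 25, 21.8 and 21.3 CPM in TAZ, and none of the other 5 raised inhibitory genes reached 5 CPM in any TAZ library. Of 8 costimulatory genes, 3 were raised and 1 lowered, and CD70, the ligand of CD27, rose by 2.60 from 0.182, 0.198 and 0.221 CPM to 1.09, 1.53 and 1.33 CPM. Among cytokine receptors, 7 of 17 were raised and 1 lowered, beside 17.2% and 18.3% of all genes tested. In this list and the costimulatory list too, members that passed the filter through the TAZ libraries had to be higher there. Their counts likewise describe and support nothing. IL4R, the receptor of interleukin 4, went from 155, 150 and 142 CPM to 255, 241 and 246 CPM (log2 change 0.65, SE 0.053, adjusted p = 1.3e-13), the highest level among the raised receptors named here, and IFNGR2, a chain of the interferon gamma receptor, fell by 0.54.

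Antigen presentation genes are given by class. Of 19 class II genes, 12 were raised and 0 lowered, with a median of 0.30. CD74, the invariant chain that guides class II molecules, stood at 2944, 2897 and 2821 CPM in DMSO and 3590, 3650 and 3628 CPM in TAZ (log2 change 0.25, SE 0.037, adjusted p = 3.6e-07). HLA-DRA went from 640, 623 and 639 CPM to 833, 833 and 845 CPM (log2 change 0.32, SE 0.04, adjusted p = 7.4e-09). The TAZ libraries were above the DMSO libraries in both. Of 20 class I genes, 7 were raised and 6 lowered, with a median of 0.071, and upper quartile scaling gave 9 raised and 2 lowered. Of 5 chains 4 were raised, and of 15 genes of peptide processing or regulation 3 were raised and 5 lowered. Related HLA genes share reads, and how the authors' counting divided such reads is not given, so single HLA values are uncertain.

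Of 50 interferon response genes, 20 were raised and 5 lowered, with a median of 0.32. Among 35 effectors 13 were raised and 3 lowered, with a median of 0.97, and DTX3L, a ubiquitin ligase partner of PARP9, had the highest TAZ values of the raised ones at 5.33, 3.91 and 3.57 CPM. Effectors that passed the count filter through the TAZ libraries had to be higher there, so the effector count describes and supports nothing. RSAD2, the antiviral enzyme viperin, went from 0.0606, 0.725 and 0.553 CPM to 2.37, 2.21 and 2.18 CPM (log2 change 2.25, SE 0.38, adjusted p = 5.2e-06). OAS3, a sensor that makes oligoadenylate on double-stranded RNA, went from 0.606, 0.989 and 0.497 CPM to 2.18, 1.3 and 2.36 CPM (log2 change 1.41, SE 0.35, adjusted p = 0.0011). All TAZ libraries were higher in both. STAT2, a subunit of the factor that turns these genes on, stood at 39.2, 36.3 and 38.2 CPM in DMSO and 55.5, 56.4 and 57 CPM in TAZ (log2 change 0.49, SE 0.065, adjusted p = 3.8e-08).

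The OAS3 window (plus strand, chr12:112938224-112938523, RefSeq on GRCh38.p14) is shown as an interferon gene with 2 matches to a core form of the interferon stimulated response element (GAAA, any 2 bases, GAAA), in capitals.
OAS3: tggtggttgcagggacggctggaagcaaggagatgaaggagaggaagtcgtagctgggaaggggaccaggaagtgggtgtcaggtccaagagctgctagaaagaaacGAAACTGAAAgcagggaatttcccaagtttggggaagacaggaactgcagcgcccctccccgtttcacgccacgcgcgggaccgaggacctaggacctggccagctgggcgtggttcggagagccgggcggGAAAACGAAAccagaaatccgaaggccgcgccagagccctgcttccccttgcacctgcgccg
Searched on both strands, this motif was found in 21 of 38 interferon response windows (55.3%), in 2.92% of windows of tested coding genes and in 3.65% of all 27305 windows. It was in 4.42% of windows of genes raised by at least 1 on the log2 scale and in 2.6% of windows of lowered genes. A match describes the letters of the window and shows neither binding nor a cause.

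Proliferation genes moved the other way. Of 39 DNA replication genes, 38 were lowered and 0 raised, with a median of −0.46. Among 40 genes of G2 phase and mitosis, 39 were lowered and 0 raised, with a median of −0.41. These lowered shares, 97.4% and 97.5%, stand beside 18.3% of all genes tested and 51.4% of all genes above 100 CPM. MCM6, a subunit of the replicative helicase, stood at 368, 366 and 367 CPM in DMSO and 284, 283 and 281 CPM in TAZ (log2 change −0.45, SE 0.044, adjusted p = 2.5e-11). CDC20, the activator of the anaphase promoting complex, stood at 208, 206 and 193 CPM in DMSO and 145, 146 and 142 CPM in TAZ (log2 change −0.56, SE 0.053, adjusted p = 9.3e-12). Replicates lay close together and the groups were apart in both. TK1, a thymidine kinase of S phase, fell by 0.70, CDK6, a G1 kinase, by 0.67 and the helicase assembly factor GINS2 by 0.62.

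Windows of MCM6 (minus strand, chr2:135876394-135876693) and CDC20 (plus strand, chr1:43358731-43359030), both from RefSeq on GRCh38.p14, are shown because replication and mitotic genes are known to use different promoter elements. Capitals mark TTTNNCGC, where N is any base, a core form of the E2F site, in MCM6 and CCAAT, the box bound by NF-Y, in CDC20.
MCM6: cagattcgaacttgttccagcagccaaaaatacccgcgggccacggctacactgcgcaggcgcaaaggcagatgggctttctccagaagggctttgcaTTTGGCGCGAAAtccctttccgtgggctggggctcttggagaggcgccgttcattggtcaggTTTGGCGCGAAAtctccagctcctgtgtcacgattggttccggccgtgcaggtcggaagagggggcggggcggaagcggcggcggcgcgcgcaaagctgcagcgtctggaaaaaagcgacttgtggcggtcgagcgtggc
CDC20: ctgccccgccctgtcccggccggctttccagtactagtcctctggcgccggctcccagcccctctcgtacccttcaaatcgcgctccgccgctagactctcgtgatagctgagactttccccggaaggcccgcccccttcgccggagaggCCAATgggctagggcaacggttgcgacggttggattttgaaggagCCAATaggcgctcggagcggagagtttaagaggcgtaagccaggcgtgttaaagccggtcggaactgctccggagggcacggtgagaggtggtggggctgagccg
Each of the 2 capital stretches of MCM6 holds TTTNNCGC on both strands with the matches overlapping, 4 matches in all, and the CDC20 window holds 2 CCAAT boxes. The MCM6 window also holds CCAAT on the opposite strand, read as ATTGG and left unmarked. The 2 windows thus do not differ in having CCAAT. On either strand, TTTNNCGC was in 20 of 34 replication windows (58.8%), in 4 of 33 mitotic windows (12.1%) and in 10.8% of windows of tested coding genes. CCAAT was in 19 of 34 replication windows (55.9%), in 24 of 33 mitotic windows (72.7%) and in 37.5% of windows of tested coding genes. Over all 27305 windows of the table, the shares were 6.9% for TTTNNCGC and 35.7% for CCAAT. Among lowered genes of every kind, 13.9% of windows held TTTNNCGC and 41.6% held CCAAT, against 7.86% and 34.3% among raised genes.

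Brakes on the cell cycle did not change together. CDKN1A, the inhibitor p21, went from 10.4, 7.06 and 5.36 CPM to 23.4, 20.1 and 23 CPM, and was the 1 raised gene of 7 CDK inhibitors tested, of which 3 were lowered, with a median of −0.27. CDKN2A, which encodes p16 and p14ARF and is a known Polycomb target, stood at 136, 116 and 110 CPM in DMSO and 101, 100 and 92.9 CPM in TAZ (log2 change −0.37, SE 0.085, adjusted p = 0.00162). Its groups did not overlap. BTG2, an antiproliferative gene, went from 133, 135 and 146 CPM to 221, 219 and 233 CPM (log2 change 0.63, SE 0.053, adjusted p = 4.6e-13), and the MYC antagonists MXD4, MXI1 and MXD1 rose by 0.71, 0.61 and 0.55. MYC itself stood at 539, 515 and 517 CPM in DMSO and 583, 611 and 586 CPM in TAZ, a log2 change of 0.10 that did not pass the test (SE 0.043, adjusted p = 0.0531).

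**Figure D4:**
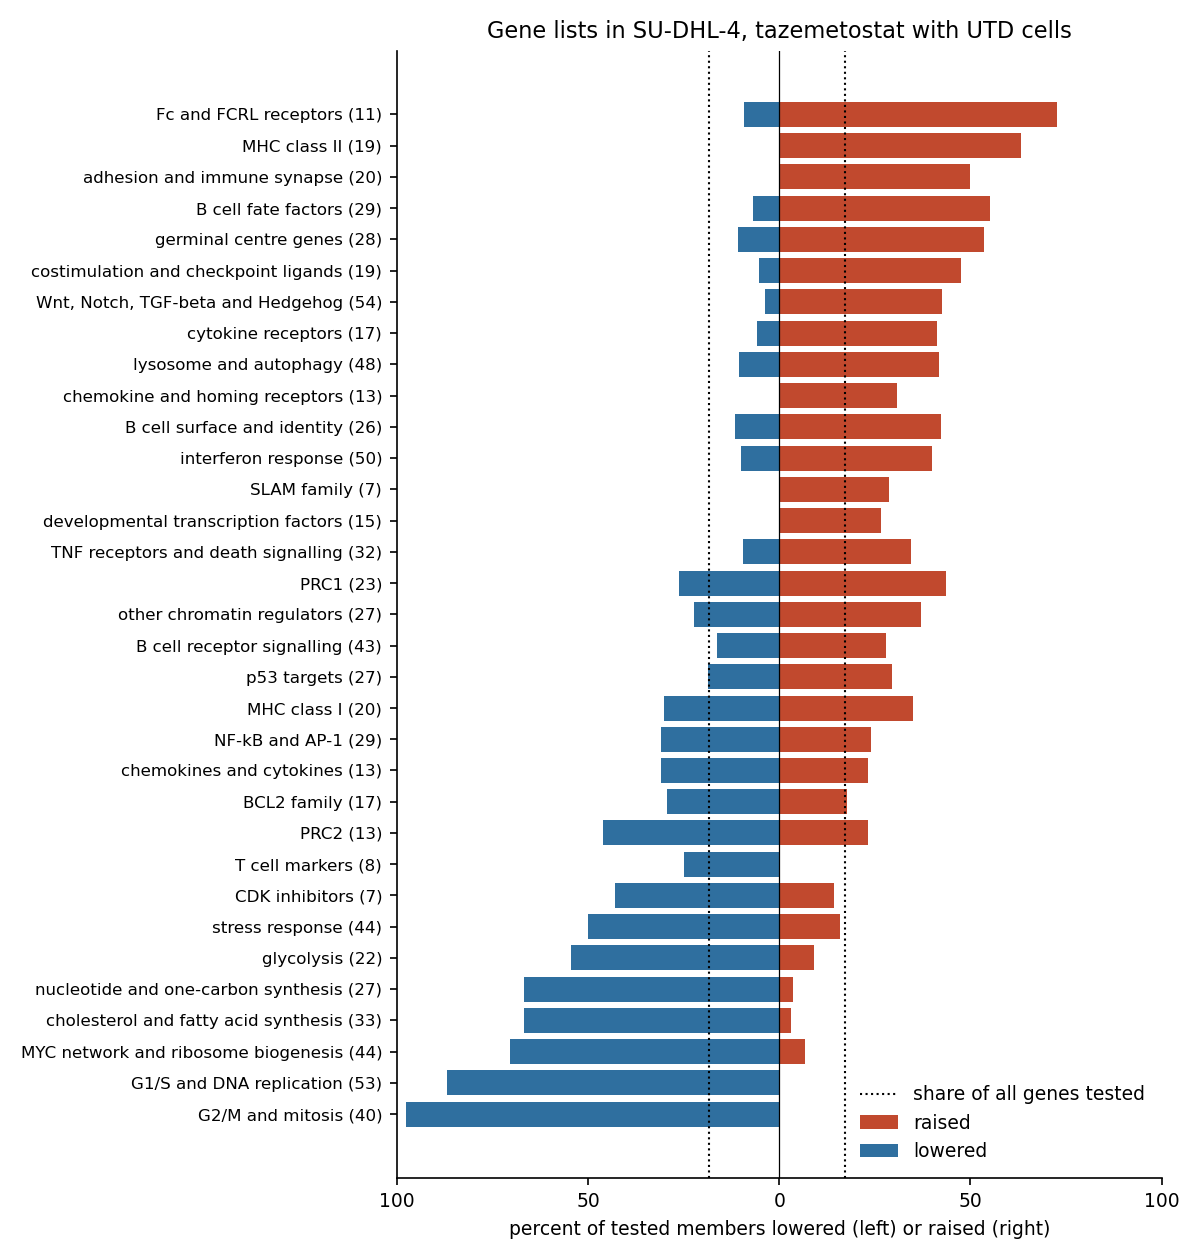
Percent of the tested members of each gene list that were lowered (bars to the left) and raised (bars to the right), with the number tested in parentheses and dotted lines at the shares over all genes tested, 18.3% and 17.2%. Lists of replication and mitosis have 0 raised members, and 8 of 11 Fc and FCRL receptor genes were raised. In lists of low genes, members that passed the count filter through the TAZ libraries had to be higher there.

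Growth and synthesis genes were more often lowered than raised, by small amounts, and their counts stand beside the 51.4% of all genes above 100 CPM that were lowered. Of 35 ribosome biogenesis genes, 28 were lowered and 0 raised, with a median of −0.27. In nucleotide synthesis 18 of 27 genes were lowered and 1 raised, in glycolysis 12 of 22 lowered and 2 raised, and in cholesterol and fatty acid synthesis 22 of 33 lowered and 1 raised; for this last list upper quartile scaling gave 14 lowered and 3 raised. LDHA, which makes lactate, stood at 1469, 1480 and 1539 CPM in DMSO and 1106, 1113 and 1110 CPM in TAZ (log2 change −0.51, SE 0.04, adjusted p = 3.9e-14). PAICS, an enzyme of purine synthesis, went from 739, 752 and 768 CPM to 577, 563 and 577 CPM (log2 change −0.47, SE 0.042, adjusted p = 2.3e-12), and FADS2, a fatty acid desaturase, fell by 0.55.

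Protein folding and turnover genes were also more often lowered than raised. Their counts, too, stand beside the 51.4% of all genes above 100 CPM and the 18.3% of all genes tested that were lowered. All 8 genes of the CCT chaperonin and 31 of 38 proteasome subunit genes were lowered, with 0 raised in either family. HSPD1, the mitochondrial chaperonin, stood at 1472, 1447 and 1516 CPM in DMSO and 1099, 1139 and 1137 CPM in TAZ (log2 change −0.47, SE 0.039, adjusted p = 1.9e-13), and HSPA8, the constitutive HSP70, fell by 0.43. Of 77 mitochondrial ribosomal protein genes 42 were lowered (54.5%, near the share above 100 CPM) and 0 raised. Of 18 aminoacyl-tRNA synthetase genes 15 were lowered and 0 raised. For 85 cytosolic ribosomal protein genes the count was 1 raised and 19 lowered (22.4%, near the share of all genes tested). Their median was −0.04, which upper quartile scaling turned positive, with 6 raised and 8 lowered. Of 13 mitochondrially encoded mRNAs, 1 was raised and 0 were lowered.

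Of 32 lysosomal genes, 14 were raised and 3 lowered, with a median of 0.18. PSAP, the precursor of the saposins that help degrade sphingolipids, stood at 275, 257 and 259 CPM in DMSO and 433, 439 and 436 CPM in TAZ (log2 change 0.65, SE 0.044, adjusted p = 4.4e-16), without overlap. GAA, the acid glucosidase, rose by 0.84 and the protease CTSB by 0.61. Of 16 autophagy genes, 6 were raised and 2 lowered, among them the initiating kinase ULK1, raised by 0.87, and SQSTM1, a cargo receptor, lowered by −0.47.

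Death genes were mixed. BMF, a proapoptotic BH3-only protein, stood at 49.4, 46.4 and 49.3 CPM in DMSO and 115, 111 and 113 CPM in TAZ (log2 change 1.15, SE 0.067, adjusted p = 2.3e-18). The proapoptotic BID and BAX fell by 0.40 and 0.34. In the BCL2 family, 3 of 17 genes (17.6%) were raised and 5 (29.4%) lowered, beside 17.2% and 18.3% of all genes tested. Upper quartile scaling gave 4 raised and 3 lowered. Of 11 TNF receptor genes 6 were raised and 1 lowered, including TNFRSF13B, the receptor TACI, at 1.80 and the death receptor TNFRSF21 at 1.62. CFLAR, the inhibitor of caspase 8, rose by 1.16. The early response gene FOS went from 0.788, 0.989 and 1.49 CPM to 4.75, 4.19 and 3.81 CPM (log2 change 1.87, SE 0.36, adjusted p = 3.8e-05), while 7 of 16 NF-kB genes were lowered and 2 raised. The medians of the BCL2 family (−0.047) and of NF-kB and AP-1 genes together (−0.056) turned positive, to 0.032 and 0.023, under upper quartile scaling.

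Signalling and shape genes of other lineages, which PRC2 is known to hold silent in many cell types, were partly detectable. Only 54 of 82 Wnt, Notch, TGF-beta and Hedgehog genes were tested, and genes that passed the count filter through the TAZ libraries had to be higher there, so the counts describe and support nothing. Among 17 TGF-beta and BMP genes, 11 were raised and 1 lowered. ID3, an inhibitor of E proteins and a target of BMP signals, stood at 28.2, 23.7 and 26.8 CPM in DMSO and 56.9, 55.3 and 55.5 CPM in TAZ (log2 change 1.01, SE 0.091, adjusted p = 2.1e-12). ID1 and ID2, of the same family, rose by 2.14 and 1.87, and the receptor BMPR2 by 1.33. Among 18 Wnt genes 9 were raised and 1 lowered, with the coreceptor LRP6 at 0.81, the receptor FZD3 at 1.59 and TCF7, a nuclear effector, at 2.42.

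Genes of the actin cytoskeleton moved both ways. CORO2A, a coronin that binds actin, went from 3.09, 2.9 and 2.98 CPM to 12.3, 11.4 and 12.8 CPM (log2 change 1.94, SE 0.19, adjusted p = 1.9e-11), and GSN, which severs filaments, rose by 1.13. FLNA, an abundant crosslinker, stood at 353, 380 and 334 CPM in DMSO and 290, 299 and 283 CPM in TAZ (log2 change −0.37, SE 0.048, adjusted p = 2.6e-08). The groups did not overlap in either direction for these genes. Of 15 developmental transcription factors tested out of 79 listed, 4 were raised, and SOX2, a factor of pluripotent and neural cells, went from 5.7, 5.14 and 3.87 CPM to 11.2, 9.74 and 9.43 CPM (log2 change 0.97, SE 0.18, adjusted p = 3.6e-05). Here too, members that passed the count filter through the TAZ libraries had to be higher there.

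The same drug contrast in the other groups shared no library with this one. With CART19 cells in place of UTD cells, tazemetostat raised 16.1% and lowered 18.7% of genes tested, and 1700 of the 2561 genes raised with UTD cells (66.4%) were raised there too, with 15 lowered. Of the 2721 lowered genes, 1884 (69.2%) were also lowered with CART19 cells and 11 were raised. In the second line, OCI-Ly18, 11.6% of genes were raised and 12.7% lowered. Of the raised genes that could be tested there, 738 of 2312 (31.9%) rose and 109 fell, and of the lowered genes 1228 of 2689 (45.7%) fell and 83 rose.

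The difference between the arms was tested directly for single genes. The drug effect differed between CART19 and UTD cultures for 133 genes (0.895%), with 40 (0.269%) higher and 93 (0.626%) lower with CART19. Leaving out single libraries moved these counts to between 17 and 182 and between 20 and 232, highest without TAZ CART19 replicate 2. FCER2 stood at 7.44, 6.16 and 5.02 CPM with DMSO and CART19, and at 16.5, 15.5 and 16.8 CPM with tazemetostat and CART19, which gave a smaller drug effect than with UTD cells by −2.36 on the log2 scale (SE 0.32, adjusted p = 7.7e-06). The drug effect differed between SU-DHL-4 and OCI-Ly18 for 1875 genes (10.6%), with 1225 (6.9%) higher and 650 (3.66%) lower in SU-DHL-4. BMF, raised in SU-DHL-4, fell in OCI-Ly18 from 50.8, 40.2 and 39.9 CPM to 34.8, 35.2 and 33.2 CPM, a difference between lines of 1.57 (adjusted p = 1.2e-14). BACH2, already at 632, 623 and 619 CPM in OCI-Ly18 with DMSO, rose there to 778, 738 and 731 CPM.

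**Figure D5:**
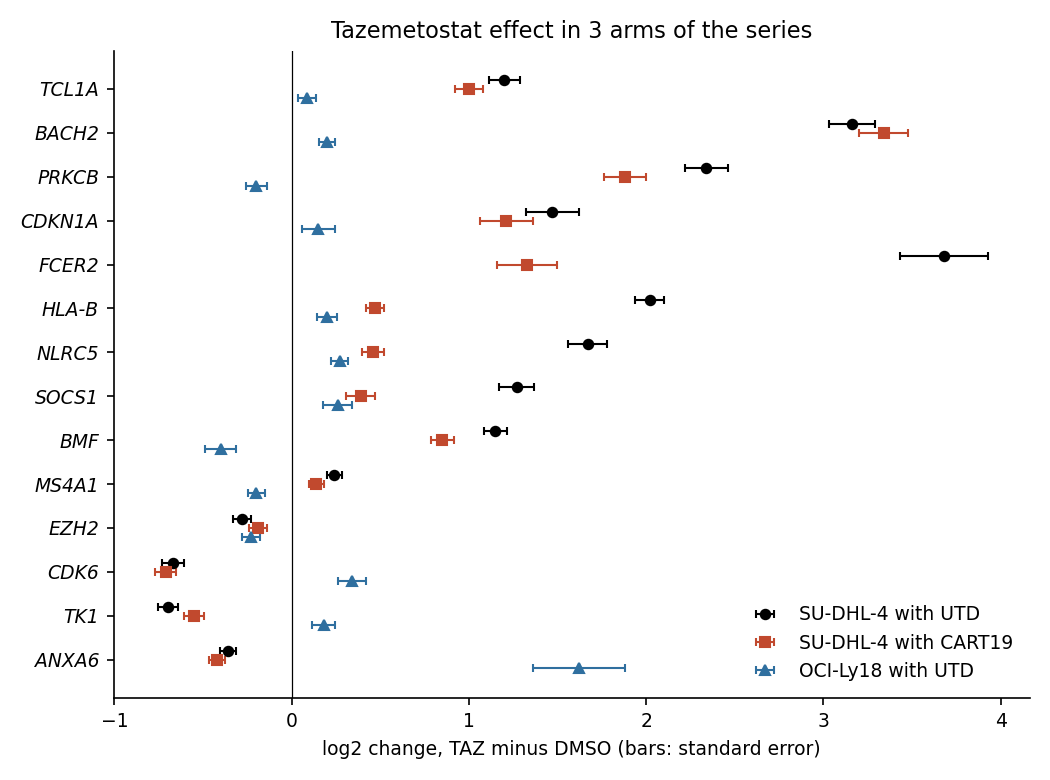
Log2 change of TAZ against DMSO (horizontal axis, bars are SE) for 14 genes in SU-DHL-4 with UTD cells, SU-DHL-4 with CART19 cells and OCI-Ly18 with UTD cells; FCER2 has no OCI-Ly18 point because it was not tested there. BACH2 rises by 3.16 with UTD cells and by 3.34 with CART19 cells, and BMF rises by 1.15 in SU-DHL-4 with UTD cells and falls by 0.40 in OCI-Ly18.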

How the data were processed

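Gene counts deposited by the authors as 1 table, with 58735 genes and 24 libraries, were used as they stand. Per the submitters' processing notes, hg38 and DESeq2 were used; for the aligner, the counter, the strand setting and their versions, nothing is given in the sources used here. All identifiers match GENCODE 29, and 27 symbols that had become dates were restored from their identifiers. Libraries were grouped by the labels and matched to columns by their numbers in the authors' own key.

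Counts of the 12 SU-DHL-4 libraries were filtered with edgeR's filterByExpr, scaled by TMM (factors 0.972 to 1.03) and fitted with edgeR 4.0.16 (quasi-likelihood, 8 residual degrees of freedom) in R 4.3.3; the biological coefficient of variation was 0.0729. The comparison of lines used all 24 libraries (17766 genes, 16 degrees of freedom). Further tables came from Python 3.11.15 with scipy 1.17.1, numpy 2.4.6 and pandas 2.3.3, and plots from matplotlib 3.10.9. Alternatives were other scalings (upper quartile, RLE), a stricter filter (mean of 20 counts) or none, DESeq2 1.42.0, limma 3.58.1 voom, a replicate block, other sets of libraries and each library left out.

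Members and gene lists were chosen with earlier results of these data known. Named genes were the 12 largest increases and 10 largest decreases of coding genes at 5 CPM or more with groups that do not overlap, the 10 highest in TAZ among those with at most 3 DMSO counts, the leading noncoding genes, up to 5 called members of each list at 1 CPM or more, the 6 largest differences in each direction of both comparisons of effects, 14 anchors, and abundant genes that changed by 0.5 or more. The following were named after their values were seen: BMPR2, CD22, CD74, CTSB, DNMT1, DTX3L, ELL2, EP300, FLNA, FZD3, GSN, HAVCR2, HLA-DRA, HSPA8, HSPD1, ID3, IFNGR2, JCHAIN, KDM6B, LAIR1, LRP6, LYN, MCM6, OAS3, SQSTM1, STAT2, TNFRSF17, UHRF1 and XBP1. Promoter windows came from a RefSeq table on GRCh38.p14, matched for 9468 of 11570 coding genes tested (81.8%). A few named genes and 1 gene list are not reported here.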

Additional observations from a re-analysis of the deposited data

Results flagged for a closer look

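The drug effect in SU-DHL-4 differed with the partner cells for 40 genes higher with CART19 than with UTD cells and for 93 lower, by edgeR's quasi-likelihood test of the interaction with Benjamini-Hochberg adjustment, and each gene below was picked out because that test passed. All groups hold 3 libraries, too few for a check of single deviating samples.

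The test gave a lower value with CART19 for the following genes. HLA-B stood at 341, 366 and 349 CPM with DMSO and CART19 and at 505, 506 and 522 CPM with tazemetostat and CART19. With UTD cells it stood at 7.03 to 8.07 CPM in DMSO and 29.4 to 35.7 CPM in TAZ. It rose by 2.02 with UTD cells and by 0.47 with CART19, a difference between effects of −1.54 on the log2 scale (adjusted p = 5.6e-16). NLRC5, the class I transactivator, went from 175, 200 and 179 CPM to 250, 270 and 277 CPM with CART19. It rose by 1.67 with UTD cells and by 0.46 with CART19, a difference of −1.21 (adjusted p = 1.9e-08). SOCS1, an inhibitor of cytokine signalling, differed by −0.88, DMD, the dystrophin gene, by −0.95, and FCER2 by −2.36. TAP1, the peptide transporter, changed by 0.43 with UTD cells and −0.20 with CART19, a difference of −0.63. LTA changed by −0.33 and −1.11, a steeper decrease with CART19 (difference −0.77), and KMT2D by 0.39 and 0.0032 (difference −0.39). Among other class I genes, HLA-C (0.18, adjusted p = 0.664) and HLA-E (−0.15, adjusted p = 0.383) did not pass the test. TAP1 stood at 522, 509 and 510 CPM in DMSO with CART19, against 16.1 to 18.1 CPM with UTD cells. The DMSO levels of HLA-B, NLRC5, SOCS1, FCER2, TAP1 and LTA were higher with CART19 than with UTD cells, and the part of that in the differences was not tested.

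PARP9 differed by −1.13, PPP1R15A by −0.65, EP300 by −0.33, BTG2 by −0.30 and MYC by −0.24. On the other side, RPS15 differed by 0.49 and ELOB by 0.44, and COPS9 by 0.61, CERKL by 0.55, MND1 by 0.48 and ZNHIT1 by 0.44. RPS15 was lowered with UTD cells and stood at 1205, 1094 and 1101 CPM in DMSO and 1328, 1142 and 1258 CPM in TAZ with CART19. With each of 12 libraries left out in turn, the calls were lost 11 times for BTG2 (−0.32 to −0.24), 10 for MYC (−0.23 to −0.20), 7 for CERKL (0.52 to 0.59) and MND1 (0.44 to 0.51), and 6 for PARP9 (−1.11 to −0.99) and EP300 (−0.32 to −0.26). They were lost 4 times for PPP1R15A (−0.62 to −0.56) and 3 times for COPS9 (0.54 to 0.60) and ZNHIT1 (0.41 to 0.44). With other settings, limma voom ended the calls of MND1, PARP9 and BTG2, the replicate block those of MND1 and MYC, and RLE scaling and no filter that of MYC.

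Between the lines, the test of the difference passed for 1225 genes with a higher effect in SU-DHL-4 and 650 with a lower one. Several B cell genes moved in opposite directions: PRKCB differed by 2.56, BMF by 1.57, the adhesion molecule PECAM1 by 3.49, TGFBR2 by 1.08, the coactivator NCOA3 by 0.78, JCHAIN by 0.68, and MS4A1 and CD22 by 0.47 each. PRKCB stood at 180, 179 and 191 CPM in OCI-Ly18 with DMSO, against 6.54 to 11.7 CPM in SU-DHL-4, and at 157, 168 and 173 CPM with tazemetostat. BMF fell in OCI-Ly18 from 50.8, 40.2 and 39.9 CPM to 34.8, 35.2 and 33.2 CPM, from a level close to that of SU-DHL-4. Lowered in SU-DHL-4 and raised in OCI-Ly18 were CDK6 (−0.99), TK1 (−0.86), LYN (−0.80), TRAC (−1.09) and the annexin ANXA6 (−1.95). CDK6 went from 75.1, 85.6 and 83.9 CPM to 107, 119 and 98.1 CPM in OCI-Ly18.

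The widest differences rested mostly on low genes. BTBD3 differed by 5.12 and IPCEF1 by 5.07, ITGA3 by 4.68, HIPK2 by 4.89, ANKRD9 by 5.15 and MX2 by 5.07. ANKRD9, HIPK2 and MX2 had 0 counts and ITGA3 had 1 count in SU-DHL-4 with DMSO, so their fitted values depend on the prior count of the fit and are no bounds. Lower in SU-DHL-4 were SLC25A29 (−1.99), SERPINA9 (−2.13), ENHO (−2.0), IGFBP6 (−2.22) and DEGS2 (−3.53). SLC25A29, a mitochondrial carrier, rose in OCI-Ly18 from 2.91, 2.55 and 2.98 CPM to 15.1, 16 and 16.8 CPM. With single libraries left out, the calls were lost 7 of 12 times for IGFBP6 (−2.23 to −1.84), 6 for ENHO (−2.02 to −1.45), 4 for DEGS2 (−3.47 to −2.79), 3 for IPCEF1 (4.17 to 5.03) and 1 for MX2 (4.43). Limma voom ended the calls of ANKRD9, IPCEF1, IGFBP6, DEGS2 and ENHO, the replicate block those of DEGS2 and ENHO, and no filter that of ENHO.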

How the results depend on the processing

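Of 258 named genes called, 229 kept direction and call in every alternative that gave a value, and no alternative called a raised gene lowered or a lowered gene raised. Upper quartile scaling gave 3221 raised and 1782 lowered genes, which moved the raised share of calls from 48.5% to 64.4% and the median of all genes from 0.014 to 0.092; it kept 65.5% of lowered calls. Among genes lowered by at least 1 on the log2 scale, it left 17, no filter 16 and the stricter filter 12, against 27; the stricter filter tests fewer genes, and otherwise the cause was not tested. DESeq2 gave 2326 raised and 2465 lowered genes, but 112 higher and 163 lower genes for the difference between CART19 and UTD effects, against 40 and 93. With all 24 libraries in the fit, 2768 were raised and 2196 lowered. In the class under 0.3 CPM, levels taken from OCI-Ly18 gave 25.9% raised and 3.03% lowered. Leaving out each library gave 2161 to 2684 raised and 2309 to 2949 lowered genes, 898 to 1031 raised and 16 to 28 lowered by at least 1 on the log2 scale, and 225 to 267 raised and 249 to 287 lowered list members, against 252 and 275. For the difference between CART19 and UTD effects it gave 17 to 182 higher and 20 to 232 lower genes, both highest without TAZ CART19 replicate 2 and lowest without TAZ UTD replicate 3, and for the difference between lines 844 to 1199 higher and 512 to 873 lower. Genes that turned sign were not called: IRF4 was 0.0086 and FAS 0.0034 under upper quartile scaling and CD274 was −0.57 with limma voom, and over the libraries left out IRF4 ran from −1.89 to 1.84, CD274 from −1.69 to 1.05 and FAS from −0.26 to 0.13. With the replicate block, 2493 genes were raised and 2682 lowered. Same-numbered libraries did not deviate together over all genes (correlations −0.045, −0.045 and 0.0058). A pairing that moved few genes would be missed, so whether they were handled in pairs stays unknown. Depth limits genes near 1 CPM, where a library holds about 15 to 18 counts.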

Other observations

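Noncoding genes were counted by annotated class. Of 632 long intergenic noncoding RNA genes tested, 109 (17.2%) were raised and 11 (1.74%) lowered. Among 953 genes annotated as antisense, 95 (9.97%) were raised and 4 (0.42%) lowered. Over all genes tested the shares were 17.2% and 18.3%. The raised share of intergenic RNA genes thus equalled that of all genes, and that of antisense genes was lower. Of 11570 protein coding genes, 2197 (19%) were raised and 2651 (22.9%) lowered. AC135782.1, a long intergenic RNA gene, had 0 counts over the 3 DMSO libraries and 97 over the TAZ libraries, at least 32.3-fold higher, and AL645608.2 had 2 and 96, a ratio of 48 (95% counting interval 12.9 to 402). The sources used here do not say whether counting used strand, and antisense genes cannot be told apart from their overlapping partners.

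Families of membrane and guidance genes known mostly from nerve and muscle were among those raised. Of 24 voltage-gated and calcium channel genes other than potassium channels 15 were raised and 1 lowered, of 27 potassium channel genes 9 and 1, of 34 axon guidance genes 16 and 1, and of 28 cadherin genes 9 and 0. Of 15 collagen and laminin genes 8 were raised and 2 lowered. Most genes of these families were too low to test, and those that passed through the TAZ libraries had to be higher there. Zinc finger genes, of which 396 were tested, gave 39 raised (9.85%) and 41 lowered (10.4%), below the 17.2% and 18.3% of all genes tested. Their median of −0.02 turned positive under upper quartile scaling. Spliceosome genes gave 1 raised and 24 lowered of 33, beside the 51.4% of all genes above 100 CPM that were lowered.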
